A study of Mus musculus with 6 samples.

Results

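The 10 genes described here belong to insulin signalling and glucose transport. They were chosen by symbol from the read count table of perfused whole mouse lungs: the glucose transporters Slc2a4 and Slc2a1, the insulin receptor Insr, its adaptors Irs1 and Irs2, the trafficking protein gene Tbc1d4, and the ATP-sensitive potassium channel subunits Abcc8, Abcc9, Kcnj11 and Kcnj8. All 10 were found among 54532 genes in the table, and all 10 were among the 18689 genes tested. The study asked how the lung transcriptome at baseline differs without ISM1, a secreted protein made in the lung. Lungs of 3 wild-type (WT) C57BL/6J mice were compared with lungs of 3 ISM1-/- mice of the same background, all untreated and 2 months old, with 1 RNA-seq library per lung. The WT mice were purchased and the knockout mice were made by the study's laboratory, so a genotype difference and a difference in where the mice came from cannot be told apart.

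Insulin binds its receptor, a tyrosine kinase, which phosphorylates the adaptors Irs1 and Irs2. These adaptors start a kinase cascade that inhibits Tbc1d4, a brake on vesicle traffic, and vesicles carrying the transporter GLUT4, the product of Slc2a4, then fuse with the cell surface. GLUT4 is typical of fat, heart and skeletal muscle, whereas GLUT1, the product of Slc2a1, takes up glucose in most cells without needing insulin. ATP-sensitive potassium channels close when cellular ATP rises; each joins a pore subunit (Kcnj11 or Kcnj8) to a sulphonylurea receptor (Abcc8 or Abcc9).

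Library totals lay between 37606133 and 42345042 counts, with a median of 39101437. Transcripts of the targeted gene Ism1 were still counted in the knockout libraries, with 3098, 3215 and 2975 counts in WT and 2784, 2508 and 2953 in ISM1-/- (log2 fold change −0.19, adjusted p = 0.217, edgeR quasi-likelihood test), so the 3 knockout libraries lay below WT after scaling, at 65.5 to 75.7 CPM against 76.9 to 82.2 CPM, but the difference missed the threshold. Markers of lung epithelium, such as the surfactant gene Sftpc, were abundant: the 9 markers summed to 42699 to 45471 CPM (counts scaled to library size) in WT and 35788 to 38499 CPM in ISM1-/-. Of the 9, 2 were called lower, the club cell gene Scgb1a1 and the ciliated cell regulator Foxj1 (log2 fold change −0.51 for each). The lower sum did not hold for every marker. In edgeR, 7 of the 9 had a negative fold change, 3 had an unadjusted p under 0.05, all lower, and the median log2 fold change was −0.02. DESeq2 gave −0.006 for Sftpc, −0.20 for Sftpb, −0.07 for Sftpa1, −0.01 for Lamp3 and −0.002 for Aqp5. It gave 0.12 for Ager and 0.16 for Hopx. Levels are given as CPM after trimmed mean of M values (TMM) scaling, with mean ± SD. A gene was called changed at a Benjamini-Hochberg adjusted p under 0.1 in edgeR's quasi-likelihood test over all tested genes.

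Of the 10 genes, 3 were called, each with lower transcript levels in ISM1-/- lungs: Slc2a4, Slc2a1 and Abcc9. Slc2a4 was the one that also changed by at least 2-fold. Among all tested genes, 4.72% were called, 3.34% lower and 1.38% higher, and 0.567% were called with at least a 2-fold change (0.284% in the lower direction). An unadjusted p under 0.05 was reached by 5 of the 10 genes and by 15.8% of tested genes. For 5 of the 10 genes, Slc2a4, Slc2a1, Abcc8, Abcc9 and Kcnj11, the 3 ISM1-/- values all lay below the 3 WT values, against 12.3% of tested genes (21.6% did not overlap in either direction). None of the 10 had all ISM1-/- values above WT, which 9.33% of tested genes did. The median log2 fold change of the 10 genes was −0.19, beside 0.0043 over all tested genes. The 10 genes were chosen with earlier results of these data known. The study had listed Slc2a4, Abcc8 and Kcnj11 among its down-regulated genes, so these shares describe the 10 genes and do not test them. Insr, Irs1, Irs2 and Tbc1d4, the genes of the signalling steps, had fold changes near 0.

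**Figure D1:**
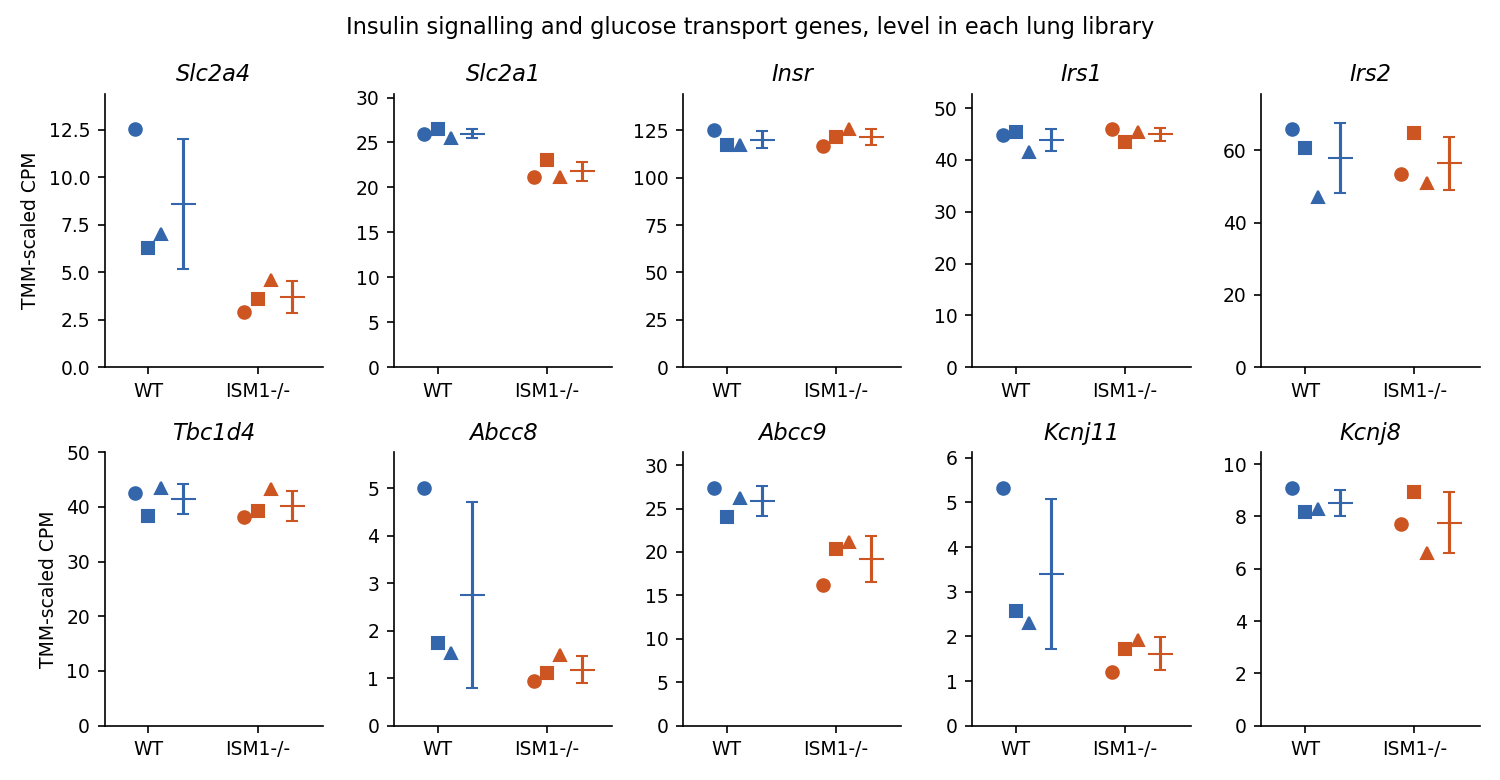
Each panel plots 1 gene's TMM-scaled CPM on a linear axis from 0, with 1 point per library (circle, square and triangle for replicates 1, 2 and 3) and a bar for the mean ± SD of each genotype. Slc2a4, Slc2a1, Abcc8, Abcc9 and Kcnj11 show no overlap between genotypes, and in Slc2a4, Abcc8 and Kcnj11 the first WT library stands above the other WT libraries.

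Slc2a4, which encodes the insulin-responsive transporter GLUT4 (chr11:69942539-69948188, minus strand, GRCm38), had 472, 260 and 271 counts in WT libraries 1 to 3 and 124, 136 and 179 counts in ISM1-/- libraries 1 to 3. Every ISM1-/- library was below every WT library, and the first WT library was 1.89 times the mean of the other two. The mean level was 8.60 ± 3.42 CPM in WT and 3.70 ± 0.841 CPM in ISM1-/- (SD, n = 3), which is 43.0% of WT. The log2 fold change was −1.22 (SE 0.265, 95% interval −1.81 to −0.63), with an adjusted p of 0.0471 in edgeR's quasi-likelihood test. Without the first WT library, the log2 fold change was −0.84 with an adjusted p of 0.0690 in the same test, under the 2-fold limit. The call was lost without the first or the second ISM1-/- library, at adjusted p = 0.172 and 0.158 (edgeR), with log2 fold changes of −1.07 and −1.20.

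Tissues that use GLUT4 may be present in a dissected lung, as heart muscle lines the large pulmonary veins of mice and fat lies at the hilum. In whole lung, fewer cells of a type and less RNA per cell cannot be told apart. All 12 cardiomyocyte markers, among them the myosin gene Myh6 and the troponin gene Tnnt2, had a negative fold change (median log2 −1.09), but 1 of 12, the atrial myosin light chain Myl7 (log2 −1.11, adjusted p = 0.0970, edgeR), was called; DESeq2 called 2 others, the cardiac factors Nkx2-5 and Tbx20. All 12 had an unadjusted p under 0.05 in edgeR's test, all lower, against 15.8% of all tested genes. For 5 of the 12, all ISM1-/- values lay below WT, against 12.3% of tested genes. No marker of that list was at 0 in all libraries. Their sum ran from 556 to 1701 CPM in WT and from 304 to 589 CPM in ISM1-/-, so the genotypes overlapped, and the first WT library was 2.79 times the mean of the other WT libraries. The 10 adipocyte markers, which include Adipoq (adiponectin) and the lipid droplet gene Plin1, summed to 470 to 570 CPM in WT and 267 to 404 CPM in ISM1-/-, without overlap; 7 of 10 were called lower and none was at 0, although Fabp4 and Lpl in that list are also used by other lung cells. Lpl alone made up 41.5% to 58.0% of the sum. The 10 skeletal muscle markers ran from 49.1 to 115 CPM in WT and from 25.5 to 45.9 CPM in ISM1-/-, with Myh4 at 0 in all libraries and 1 of 6 tested, the troponin gene Tnnt3 (log2 −0.81), called lower. Mb and Ckm, which heart muscle also uses, made up 78.3% to 92.1% of that sum; the rest ran from 7.28 to 9.15 CPM in WT and from 5.53 to 6.62 CPM in ISM1-/-. The fast-muscle gene Mylpf, picked out after its values were seen, was higher in every ISM1-/- library than in WT (log2 fold change 0.41) but not called (adjusted p = 0.349, edgeR). The 6 brown fat markers summed to 15.4 to 34.8 CPM in WT and 11.8 to 17.1 CPM in ISM1-/-, with the mitochondrial gene Cox8b (log2 −1.13) called of 5 tested. The first WT library was again the highest, 2.10 times the mean of the other WT libraries for brown fat and 2.31 times for skeletal muscle markers.

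Set against these lists, Slc2a4 gave different pictures. Per 1000 CPM of summed cardiomyocyte markers, it stood at 7.36, 11.3 and 10.6 CPM in WT and at 9.59, 8.52 and 7.79 CPM in ISM1-/-, so the genotypes overlapped. Per 1000 CPM of summed adipocyte markers, it stood at 22.0, 13.3 and 13.6 CPM in WT and at 10.9, 11.3 and 11.4 CPM in ISM1-/-, lower without overlap. That separation rested on Lpl: per 1000 CPM of the adipocyte markers without Lpl, Slc2a4 stood at 41.4, 24.0 and 23.3 CPM in WT and at 25.3, 26.8 and 24.7 CPM in ISM1-/-, and the genotypes overlapped. With Fabp4 also left out, Slc2a4 stood at 49.5, 28.1 and 26.5 CPM in WT and at 27.5, 29.4 and 28.3 CPM in ISM1-/-. With Fabp4 and Lipe also left out, it stood at 67.6, 40.8 and 36.9 CPM in WT and at 61.6, 69.9 and 51.1 CPM in ISM1-/-. The genotypes overlapped in both cases, and in the last every ISM1-/- value lay above WT replicates 2 and 3. The part of either tissue in the Slc2a4 difference was not tested. Among the genes whose pattern over the 6 libraries was closest to Slc2a4, by root mean square difference in centred log2 CPM, were Art1 (0.0622), Myl7 (0.123), Csrp3 (0.138) and Ryr2 (0.139), of which Myl7 and Ryr2 stand in the cardiomyocyte list.

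**Figure D2:**
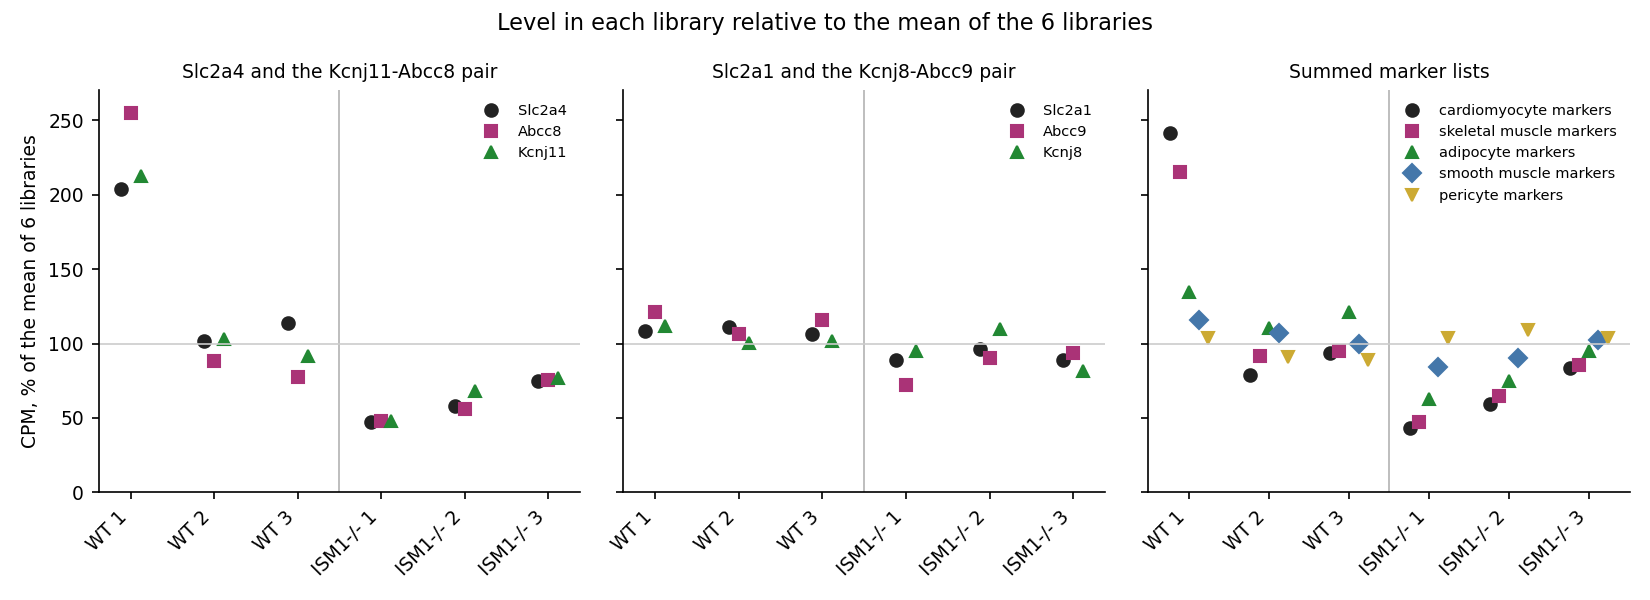
Each point is the CPM of a gene, or the summed CPM of a marker list, in 1 library, as a percent of the mean of the 6 libraries (linear axis from 0). In WT replicate 1, Slc2a4, Abcc8 and Kcnj11 reach 204%, 255% and 213% and the cardiomyocyte sum 241%. In that library Slc2a1, Abcc9 and Kcnj8, in the middle panel, stand at 109%, 121% and 112%.

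Slc2a1, the gene of the widely used transporter GLUT1 (chr4:119108711-119137983, plus strand), had a small and even reduction. The libraries held 977, 1099 and 985 counts in WT and 900, 873 and 827 in ISM1-/-, and after scaling every ISM1-/- library was below every WT library. Its level was 26.0 ± 0.506 CPM in WT and 21.8 ± 1.05 CPM in ISM1-/- (SD, n = 3), or 84.0% of WT. The log2 fold change was −0.25 (SE 0.0666, 95% interval −0.40 to −0.10, adjusted p = 0.0873, edgeR quasi-likelihood test). Leaving out single libraries kept the value between −0.29 and −0.23, but the call held in 1 of 6 such fits, the one without the third ISM1-/- library (adjusted p = 0.0861, edgeR). Its closest patterns were those of Abhd11 (root mean square difference 0.0210), Col5a1 (0.0213), Mpc2 (0.0222), Gys1 (0.0223) and Glt1d1 (0.0242). Mpc2 is part of the mitochondrial pyruvate carrier, and Gys1 is the glycogen synthase of muscle and most other tissues.

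Of the 14 genes in the glucose transporter list, which holds the Slc2a family and sodium-coupled transporters, 11 were tested and 2 were called lower, Slc2a1 and Slc2a4 themselves. The median log2 fold change of the 11 was 0.0022. Slc2a3, which encodes the high-affinity transporter GLUT3 of neurons and blood cells, went the other way, with 366, 358 and 360 counts in WT and 573, 434 and 422 in ISM1-/-. All 3 ISM1-/- libraries were above WT after scaling (log2 fold change 0.37, SE 0.109), but the adjusted p of 0.120 in edgeR's quasi-likelihood test missed the threshold, while DESeq2 gave 0.0626. The liver and islet transporter gene Slc2a2 had too few counts to be tested. As a share of the summed FPKM (fragment counts scaled to transcript length and library size) of the listed Slc2a genes, Slc2a4 made up 13.4%, 7.34% and 8.46% in WT and 3.66%, 4.36% and 5.87% in ISM1-/-. Slc2a1 held 27.5% ± 1.67 in WT and 25.1% ± 0.655 in ISM1-/-, and Slc2a3 held 8.21% ± 0.459 and 11.6% ± 1.37 (SD, n = 3). The ratio of Slc2a4 to Slc2a1 FPKM was 0.523, 0.256 and 0.298 in WT and 0.149, 0.169 and 0.235 in ISM1-/-, lower without overlap.

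The insulin receptor and its adaptors showed no called change. Insr (chr8:3122061-3279617, minus strand) had 4724, 4873 and 4542 counts in WT and 4971, 4618 and 4901 in ISM1-/-, which gave 120 ± 4.54 and 121 ± 4.36 CPM (SD, n = 3). The log2 fold change was 0.02 with a 95% interval of −0.11 to 0.14, an interval narrower than those of its adaptors. Irs1, the adaptor most tied to growth and muscle signalling (chr1:82233101-82291416, minus strand), had 1693, 1881 and 1604 counts in WT and 1953, 1650 and 1769 in ISM1-/-. Its log2 fold change was 0.03 with an interval of −0.11 to 0.18. Irs2, the adaptor most tied to liver and islet signalling (chr8:10984681-11008458, minus strand), varied more, with 2483, 2522 and 1825 counts in WT and 2271, 2457 and 1991 in ISM1-/-. In both genotypes the third library had the lowest Irs2 level, and the log2 fold change was −0.04 with an interval of −0.32 to 0.24. Adjusted p-values in edgeR's quasi-likelihood test were 0.933 for Insr, 0.865 for Irs1 and 0.926 for Irs2. Leaving out single libraries changed the sign of each of these 3 small values.

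Tbc1d4, also known as AS160, links the kinase Akt to GLUT4 vesicles (chr14:101442360-101609191, minus strand). It had 1604, 1592 and 1683 counts in WT and 1624, 1487 and 1691 in ISM1-/-, and the genotypes overlapped. Means were 41.5 ± 2.74 CPM and 40.2 ± 2.73 CPM (SD, n = 3), with a log2 fold change of −0.04 (95% interval −0.21 to 0.13, adjusted p = 0.850, edgeR quasi-likelihood test). No close relative or partner listed here was called by edgeR: log2 fold changes were −0.08 for the related receptor Igf1r, 0.07 for the adaptor Irs3, −0.06 for the kinase Akt2, −0.02 for Tbc1d1 and 0.12 for the GLUT4 vesicle protein Trarg1, listed as Tusc5. For Akt1 the adjusted p was 0.997 in edgeR's test, and Irs4 had 0 counts in every library.

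**Figure D3:**
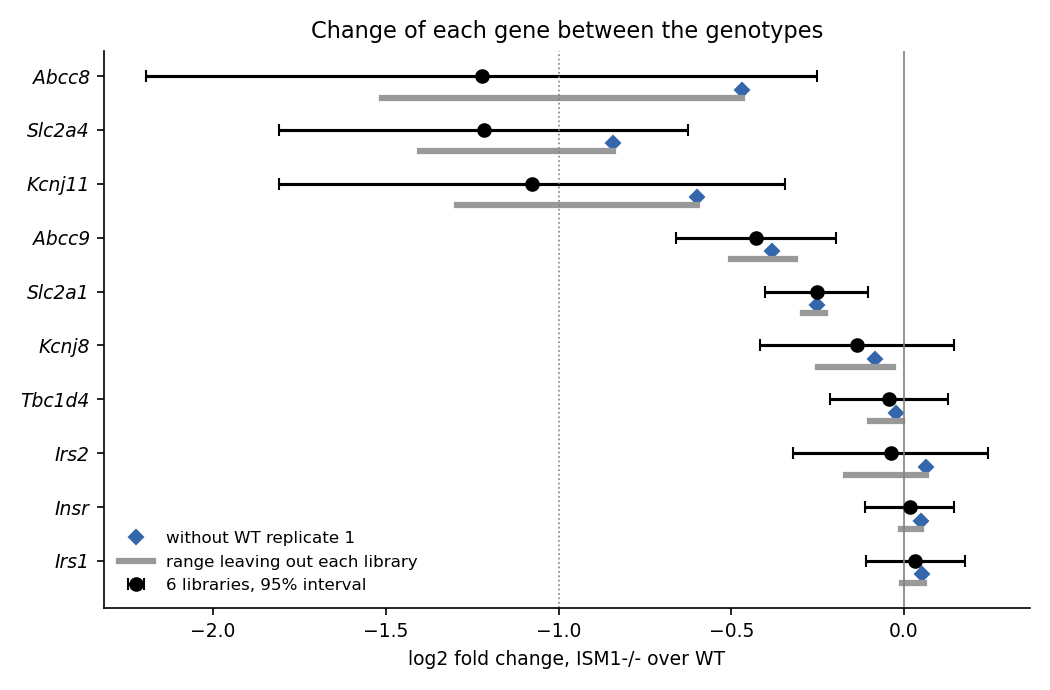
Black points and bars give the log2 fold change of ISM1-/- over WT and its 95% interval from edgeR over 6 libraries, the grey bar the range when each library is left out in turn, and the blue diamond the value without WT replicate 1; the dotted line marks a 2-fold reduction. Without WT replicate 1, Slc2a4, Kcnj11 and Abcc8 move to −0.84, −0.60 and −0.47, right of the dotted line.

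Kcnj11 and Abcc8 encode the pore Kir6.2 and the receptor SUR1, which together form the channel of pancreatic beta cells; Kir6.2 also serves heart and skeletal muscle. The genes lie side by side on the minus strand of chromosome 7 (Kcnj11 at chr7:46093953-46100764, Abcc8 at chr7:46104523-46180033), with 3758 bases between them. Both had few counts. Kcnj11 held 201, 107 and 89 counts in WT and 51, 65 and 75 in ISM1-/-. Abcc8 held 189, 72 and 59 counts in WT and 40, 42 and 58 in ISM1-/-. In both genes the first WT library was far above the rest, 2.19 times the mean of the other WT libraries for Kcnj11 and 3.07 times for Abcc8, and WT replicate 3 and ISM1-/- replicate 3 were close, at 1.53 and 1.49 CPM for Abcc8 and at 2.30 and 1.92 CPM for Kcnj11.

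Mean levels were 3.40 ± 1.67 CPM in WT and 1.61 ± 0.372 CPM in ISM1-/- for Kcnj11, or 47.4% of WT. For Abcc8 they were 2.76 ± 1.96 CPM and 1.18 ± 0.280 CPM (SD, n = 3), or 42.7% of WT. The log2 fold change of Kcnj11 was −1.08 (SE 0.328, 95% interval −1.81 to −0.35) with an adjusted p of 0.134 in edgeR's quasi-likelihood test. That of Abcc8 was −1.22 (SE 0.435, interval −2.19 to −0.25) with an adjusted p of 0.195 in the same test. Neither passed the threshold, although the fold change of Abcc8 was as large as that of Slc2a4. DESeq2 put both under it, at adjusted p = 0.0212 for Kcnj11 and 0.0461 for Abcc8, and so did edgeR without a filter on low counts, at adjusted p = 0.00390 and 0.00756. Without the first WT library the log2 fold changes were −0.60 and −0.47, with adjusted p of 0.281 and 0.484 in edgeR.

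The ratio of the channel partners varied less than their levels. Abcc8 FPKM over Kcnj11 FPKM was 0.522, 0.374 and 0.368 in WT and 0.435, 0.359 and 0.429 in ISM1-/-, with overlap. Per 1000 CPM of summed cardiomyocyte markers, Kcnj11 stood at 3.13, 4.64 and 3.47 CPM in WT and at 3.94, 4.07 and 3.27 CPM in ISM1-/-. Abcc8 stood at 2.95, 3.12 and 2.30 CPM and at 3.09, 2.63 and 2.53 CPM on that scale. Both overlapped between genotypes, and the part of heart muscle in either gene's difference was not tested. Markers of neuroendocrine cells, the hormone-secreting cells of the airway lining, summed to 10.3 to 11.8 CPM in WT and 8.63 to 9.84 CPM in ISM1-/-; 0 of the 5 tested were called by edgeR or by DESeq2, and 0 had an unadjusted p under 0.05.

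Kcnj8 and Abcc9 encode Kir6.1 and SUR2, which form the channel of vascular smooth muscle and pericytes; SUR2 also pairs with Kir6.2 in heart muscle. They lie on the minus strand of chromosome 6 with 16247 bases between them. Promoter sequence was matched for 6 of the 10 genes (Slc2a1, Irs1, Irs2, Tbc1d4, Abcc9 and Kcnj8). The promoters of this pair are shown because the 2 neighbours, which make one channel, differed in their calls. Each stretch runs from 250 bases before the RefSeq start to 20 bases from it (RefSeq, GRCm38.p6, minus strand, 5′ to 3′), at chr6:142702255-142702524 for Abcc9 and chr6:142571595-142571864 for Kcnj8; capitals mark motif matches.
Abcc9: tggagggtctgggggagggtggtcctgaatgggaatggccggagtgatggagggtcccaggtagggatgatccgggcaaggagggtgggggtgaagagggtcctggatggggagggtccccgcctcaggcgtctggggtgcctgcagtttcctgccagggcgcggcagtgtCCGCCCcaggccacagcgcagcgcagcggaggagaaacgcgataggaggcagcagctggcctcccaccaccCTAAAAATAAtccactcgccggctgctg
Kcnj8: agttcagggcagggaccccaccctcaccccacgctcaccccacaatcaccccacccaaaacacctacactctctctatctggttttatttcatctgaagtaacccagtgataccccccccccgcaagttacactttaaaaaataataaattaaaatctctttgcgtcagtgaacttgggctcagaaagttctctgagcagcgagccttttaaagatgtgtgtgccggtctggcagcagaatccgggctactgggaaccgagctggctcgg
The searched motifs were the GC box GGGCGG, the TATA box TATAAA, the E-box CACGTG and the consensus motif of the muscle factor MEF2, on both strands over 300 bases; the MEF2 motif was chosen after the sequences were seen. In Abcc9 the capitals mark a GC box on the opposite strand and the MEF2 motif at the start site. The MEF2 motif occurs in 3.19% of all RefSeq promoters of this length and the GC box in 35.7%. Kcnj8 holds none of the searched motifs in this window. A match describes letters and is not evidence that a factor binds there.

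Abcc9 (chr6:142587862-142702315) was lower in ISM1-/- lungs. It had 1033, 998 and 1012 counts in WT and 689, 772 and 825 in ISM1-/-, all ISM1-/- libraries being below all WT libraries. Means were 25.9 ± 1.70 CPM and 19.2 ± 2.65 CPM (SD, n = 3), or 74.3% of WT, with a log2 fold change of −0.43 (SE 0.103, 95% interval −0.66 to −0.20) and an adjusted p of 0.0657 in edgeR's quasi-likelihood test. Leaving out single libraries gave −0.50 to −0.32; the call held in 1 of 6 such fits, without the third ISM1-/- library (adjusted p = 0.0350, edgeR). The genes closest to its pattern were Itih3 (root mean square difference 0.0345), Usp13 (0.0428), Ddo (0.0495), Abhd12b (0.0521) and Cntfr (0.0541). Kcnj8 (chr6:142564837-142571614) had 343, 339 and 321 counts in WT and 328, 339 and 258 in ISM1-/-, with overlap. Its means were 8.52 ± 0.503 CPM and 7.75 ± 1.16 CPM, with a log2 fold change of −0.14 (95% interval −0.42 to 0.15, adjusted p = 0.671, edgeR). The intervals of the 2 genes overlap, and the difference between their fold changes was not tested. The ratio of Abcc9 to Kcnj8 FPKM was 1.26, 1.23 and 1.31 in WT and 0.876, 0.949 and 1.33 in ISM1-/-.

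Cells that carry this channel were described by 2 marker lists. The 8 pericyte markers, among them Pdgfrb and Notch3, summed to 867 to 1015 CPM in WT and 1016 to 1065 CPM in ISM1-/-, and 1 of 8, the matrix gene Postn (log2 0.38), was called, as higher. Without Postn the sums overlapped, at 511 to 622 CPM in WT and 515 to 592 CPM in ISM1-/-. The 8 smooth muscle markers, among them Acta2 and Myh11, summed to 642 to 742 CPM in WT and 542 to 657 CPM in ISM1-/-, with the contractile gene Cnn1 (log2 −0.75) called lower by edgeR. All 8 had lower means in ISM1-/-, 4 had an unadjusted p under 0.05, and DESeq2 called 3, Cnn1, Acta2 and Actg2. None of these markers was at 0. Per 1000 CPM of summed pericyte markers, Abcc9 stood at 27.0, 27.1 and 30.2 CPM in WT and at 15.9, 19.1 and 20.8 CPM in ISM1-/-, lower without overlap. With Postn left out of the sum, Abcc9 stood at 44.1, 43.4 and 51.2 CPM in WT and at 28.0, 34.4 and 41.0 CPM in ISM1-/-. It was again lower without overlap, but WT replicate 2 and ISM1-/- replicate 3 were close. Per 1000 CPM of summed smooth muscle markers it stood at 36.9, 35.0 and 40.8 CPM and at 29.9, 35.1 and 32.2 CPM. On that scale the genotypes overlapped narrowly, only through WT replicate 2 and ISM1-/- replicate 2, at 35.0 and 35.1 CPM. The part of these cells in the Abcc9 difference was not tested. Endothelial markers summed to 4006 to 4221 CPM in WT and 4306 to 4497 CPM in ISM1-/-; edgeR and DESeq2 called 0 of the 6, and 3 had an unadjusted p under 0.05, all higher.

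Between genes, levels were compared per length, as the deposited FPKM averaged over 6 libraries. Insr was highest at 37.1, then Slc2a1 at 16.4, Tbc1d4 at 12.1 and Irs2 at 9.04; over the 6 libraries none of these overlapped the next gene in the order. Irs1 (4.85), Slc2a4 (4.58), Abcc9 (3.90), Kcnj8 (3.38), Kcnj11 (2.30) and Abcc8 (1.001) followed, and neighbours among them overlapped. The order depends on the length used. Per kilobase of the gene length listed beside the counts, Irs2 (9.04) and Insr (8.78) led, followed by Slc2a1 (6.81), Tbc1d4 (5.32), Irs1 (4.86), Kcnj8 (3.19), Abcc9 (2.69), Slc2a4 (1.77), Kcnj11 (0.682) and Abcc8 (0.243), in TMM-scaled CPM per kilobase.

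Few genes of the wider pathway passed the test. Of 39 other insulin pathway genes, from Igf1r to the FOXO factors, 38 were tested and 0 were called by edgeR's quasi-likelihood test; 3 had an unadjusted p under 0.05 in the lower direction and 2 in the higher, and DESeq2 called 1, Gys1, as lower (log2 −0.23, adjusted p = 0.0964). Their median log2 fold change was 0.0040. Of 20 genes of GLUT4 vesicle traffic, 0 were called by edgeR or DESeq2, 1 had an unadjusted p under 0.05 in each direction, and the median was 0.03. Of 20 genes of glycolysis, 1 was called, the lactate dehydrogenase subunit gene Ldhb, typical of heart (log2 −0.51, adjusted p = 0.00946, edgeR), and the median was −0.04. In that list 14 genes had a negative fold change. An unadjusted p under 0.05 in edgeR's test was reached by 7, all lower, against 15.8% of all tested genes.

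The list of insulin-responsive metabolism, which holds enzymes of fatty acid, glycerol and glucose handling, had 4 of 14 genes called lower, against 3.34% of all tested genes. All 14 had a negative fold change (median log2 −0.28), and 9 had an unadjusted p under 0.05, against 15.8% of all tested genes. The count of calls was 1 without ISM1-/- replicate 2, 2 without WT replicate 1, WT replicate 2 or ISM1-/- replicate 1, and 7 without ISM1-/- replicate 3. No test compared this list with the others. The 4 genes were Pck1, which makes glycerol phosphate in fat and glucose in liver (log2 −2.19, adjusted p = 0.0489), Gpd1, glycerol phosphate dehydrogenase (−0.67, 0.0186), and the fatty acid synthesis enzymes Acaca (−0.39, 0.0488) and Fasn (−0.35, 0.0625), all in edgeR's quasi-likelihood test. Adipocytes and lung alveolar type II cells both make fatty acids, and the adipocyte sums given above were lower in the same ISM1-/- libraries, with Lpl and Lipe in both lists; the part of fat in these 4 calls was not tested.

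**Figure D4:**
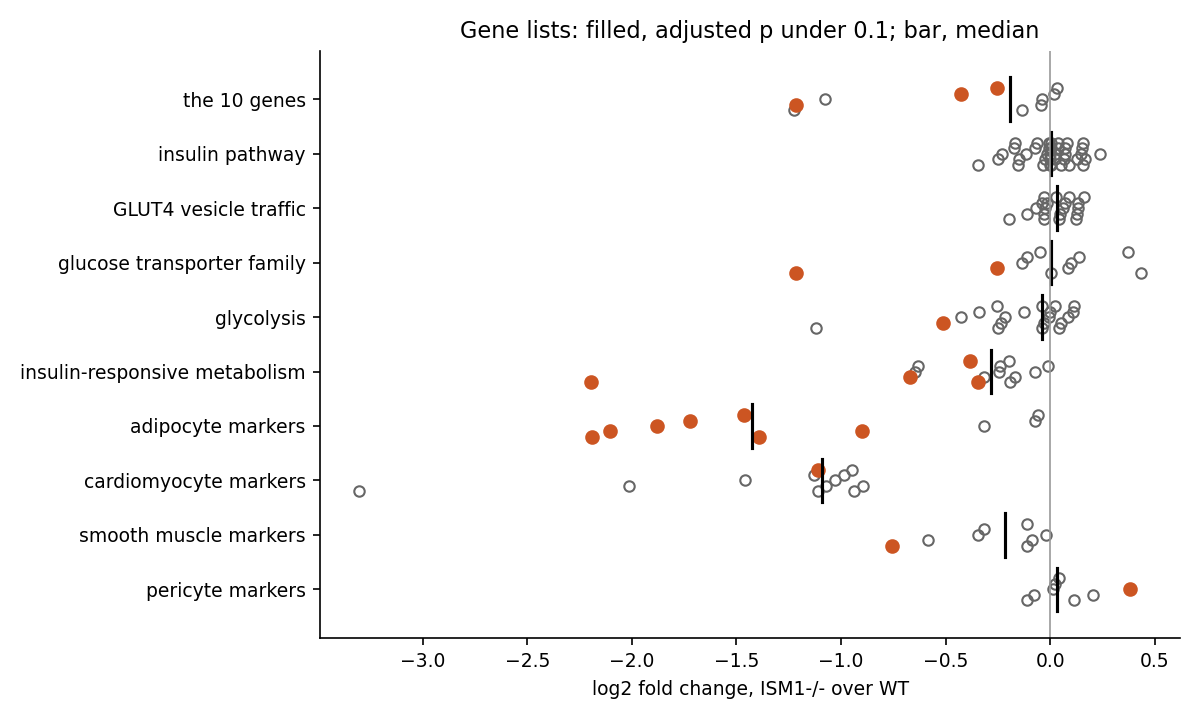
Each circle is the log2 fold change of 1 tested gene, ISM1-/- over WT, by gene list; filled circles have an adjusted p under 0.1 in edgeR and vertical bars are list medians. The 38 insulin pathway genes and the 20 GLUT4 vesicle genes centre near 0 with no filled circle, while 7 of 10 adipocyte markers and 1 of 12 cardiomyocyte markers are filled and lower. By an unadjusted p under 0.05 in edgeR, 8 of 10 adipocyte and 12 of 12 cardiomyocyte markers were lower, and the list medians were −1.43 and −1.09.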

How the data were processed

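RNA from 6 perfused whole lungs (3 WT, 3 ISM1-/-) was poly-A enriched, made into strand-specific libraries and sequenced paired-end. The authors aligned reads to GRCm38 with STAR and deposited read counts per gene and FPKM. The counting program, its strand setting and the annotation release are not given in the sources used here. The deposited FPKM used, as length, the mean of a gene's annotated transcripts in GENCODE release 21 within 1 base for 94.9% of 14658 genes compared, not the gene length listed in the table; counts and FPKM of one sample thus differ in scale between genes.

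Counts were tested with edgeR 4.0.16 (quasi-likelihood, TMM scaling, at least 0.5 CPM in at least 1 library, Benjamini-Hochberg adjustment over all tested genes, R 4.3.3); SEs are the log2 fold change over the root of F. The code was tested on simulated data. DESeq2 1.42.0, other scalings, filters and thresholds, a replicate block and leaving out each library were the alternatives. Replicates are separate animals according to the study. Between-library counting variation exceeded sampling noise for every pair (chi-square per degree of freedom 5.46 to 30.2), so none was a duplicate.

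The 10 genes and all lists were chosen with earlier results of these data known. Text names the 10 genes, called genes of other lists (at most 6 each), close relatives, the targeted gene, and the 5 genes nearest in pattern to Slc2a4 and to called members, with mean CPM of at least 1. One gene that this rule names for Slc2a4 is not reported here. Genes overlapping a member in the table held at most 2.38% of that member's counts.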

Additional observations from a re-analysis of the deposited data

How the results depend on the processing

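The 3 genes called among the 10 became 5 with DESeq2, 5 without a filter on low counts and 1 at an adjusted p under 0.05, and 0 to 3 when single libraries were left out. Those called with a 2-fold change went from 1 to 3 with DESeq2, 3 without a filter and 0 to 1 without single libraries. Genes called in the whole table went from 882 to 1285 with DESeq2 and to 1632 without a filter. They numbered 455 at the stricter threshold and 150 to 1470 without single libraries. Leaving out libraries gave counts per list of 0 to 1 for GLUT4 vesicle traffic, pericyte and endothelial markers, 0 to 3 for glucose transporters and cardiomyocyte markers, 1 to 2 for glycolysis and lung epithelium markers, 1 to 7 for insulin-responsive metabolism, 3 to 8 for adipocyte markers, 0 to 2 for brown fat and skeletal muscle markers and 0 to 4 for smooth muscle markers. The cause was not tested. Marker sums without Lpl, Fabp4, Lipe, Postn, Mb or Ckm were added after seeing the data.

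Without single libraries the log2 fold change of Insr ran from −0.0075 to 0.0497, that of Irs1 from −0.0060 to 0.0577 and that of Irs2 from −0.167 to 0.0642; signs reversed for Insr without ISM1-/- replicate 3, for Irs1 without WT replicate 3, and for Irs2 without WT replicate 1, ISM1-/- replicate 1 (0.00088) or ISM1-/- replicate 3 (0.0289). Abcc8 was not tested under the filter of a mean above 2 CPM.

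Same-numbered libraries did not deviate together over all genes (correlations −0.0405, 0.0310 and 0.00101). With 3 such pairs, this cannot show that they share a number only. The replicate block gave 1105 called genes and 3 of the 10.

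By TMM-scaled counts per kilobase of listed length, levels in WT and ISM1-/- were 2.47 and 1.06 for Slc2a4, 7.40 and 6.22 for Slc2a1, 8.73 and 8.83 for Insr, 5.40 and 5.24 for Tbc1d4, 0.341 and 0.146 for Abcc8, 3.09 and 2.30 for Abcc9, and 0.926 and 0.438 for Kcnj11. The different lengths make these differ from FPKM.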

Other observations

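The FPKM length was shorter than the listed gene length for 8 of the 10 genes, by ratios from 1.06 for Kcnj8 to 4.22 for Insr, with 4.12 for Abcc8, 3.37 for Kcnj11, 2.59 for Slc2a4, 2.41 for Slc2a1, 2.28 for Tbc1d4 and 1.45 for Abcc9. Irs1 and Irs2 had the same length in both.

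Erythroid markers summed to 135 to 445 CPM in WT and 148 to 624 CPM in ISM1-/- lungs, and edgeR and DESeq2 called 0 of the 5 tested (0 with an unadjusted p under 0.05).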
